A study of Macaca mulatta with 12 samples.

Results

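Oligodendrocyte precursors are the dividing glial cells from which myelinating oligodendrocytes arise, and in the adult primate brain they remain spread through grey and white matter. In these data they were the 429 nuclei, of 26400 in the deposited table, chosen by a rule on measured UMI counts: at least 3 UMIs of LHFPL3, at least 2 UMIs summed over STK32A, COL9A1, AFAP1L2 and C1QL1, at most 1 of RBFOX3, at most 1 of GAD1 and GAD2 summed, at most 3 of MOBP, MOG, OPALIN and MAG summed, and at most 1 of ENPP6 and BMPER summed. A UMI, a unique molecular identifier, marks 1 captured RNA molecule, so copies made by PCR are counted once. The precursors were 1.63% of all nuclei (exact binomial 95% interval 1.48% to 1.78%). They are compared below with the 25971 nuclei outside the rule, astrocytes included.

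Nuclei came from frozen amygdala of rhesus macaques (Macaca mulatta), surgically removed, with no treatment, genotype, age or other condition named in the labels. All 12 samples in the labels belong to 1 group. Titles number 3 specimens, each with 4 libraries. Single-nucleus libraries were made with a 10x Genomics droplet kit that reads the 3′ end of transcripts, and 15000 nuclei went into each channel so as to recover 9000. The table's barcodes end in 1 of 3 suffixes, giving barcode sets of 9201, 8900 and 8299 nuclei that no label ties to a sample or an animal.

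The pool was therefore treated as 1 sample: no test was possible, intervals cover counting error only, and the 3 barcode sets serve to show whether a direction recurred. Precursors made up 159, 142 and 128 nuclei of the sets, which is 1.73%, 1.60% and 1.54% of each. Their median depth was 2481 UMIs (lowest 724, highest 12942) and 1540 genes per nucleus, against 5124 UMIs in all other nuclei. Levels are given as CPM: UMIs of a gene summed over the nuclei of a class, per 1000000 UMIs of that class. They are levels of nuclear RNA, rich in unspliced transcripts, and because reads come from the 3′ end and gene models differ, levels are compared between classes for 1 gene and not between genes. Across the 26400 nuclei, 68 barcode sequences occurred in more than 1 set, in 136 nuclei, of which 2 were precursors. Leaving those nuclei out moved no count of genes by over 1.5 times.

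The other 5 classes were gated from the same table for comparison and are named for their gates: 161 committed precursors (ENPP6 or BMPER with BCAS1 or TNS3), 374 mature oligodendrocytes (the 4 myelin genes of the rule), 2661 astrocytes (AQP4, SLC1A3, GJA1, ALDH1L1 and FGFR3), 1406 inhibitory neurons (RBFOX3 with GAD1 and GAD2) and 6177 excitatory neurons (RBFOX3 with SLC17A7 and SV2B). Another 15192 nuclei fell in none of the gates. Gated excitatory neurons alone held 43.7% of the UMIs of all other nuclei, so the comparison with all other nuclei is weighted towards neurons. For that reason levels in some of the gated classes are given beside many of the values. All comparisons use the nuclei on which the rule was applied, so they describe the gated nuclei, and genes used by a gate of either side stand outside the counts.

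Precursors receive platelet-derived growth factor through the receptor PDGFRA, keep the lineage transcription factors OLIG1, OLIG2 and SOX10, and carry a coat of chondroitin sulfate proteoglycans. They form synapses with neurons as the receiving partner, through AMPA and GABA receptors. On the way to myelination they lose PDGFRA and the proteoglycans, pass through a short-lived committed stage marked by ENPP6, BCAS1 and TCF7L2 in mouse and human, and then switch on the myelin genes.

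The label was first set against markers that the rule did not use. The 12 of 13 such precursor markers with a row in the table (SOX10 had none) summed to 11028 CPM in precursors, against 7230 CPM in committed precursors, 1237 CPM in mature oligodendrocytes, 3009 CPM in astrocytes, 1261 CPM in inhibitory neurons and 2580 CPM in excitatory neurons. The sum was 10807, 11897 and 10354 CPM in precursors of the 3 barcode sets. All 12 were seen, but 3 at very low counts: OLIG1 had 1 UMI and GPR17 5 UMIs in all 429 nuclei, and CSPG4, the NG2 proteoglycan, 50 UMIs in 46 nuclei. PDGFRA stood at 1027 CPM in precursors, against 497 CPM in committed precursors, 203 CPM in mature oligodendrocytes, 316 CPM in astrocytes, 288 CPM in inhibitory neurons and 306 CPM in excitatory neurons. The lowest of these levels was that of mature oligodendrocytes, and the highest that of precursors.

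PDGFRA was detected in 86.7% of precursors at their own depth (95% interval 83.1% to 89.8%). With every nucleus thinned to 1000 UMIs the share was 63.3% of precursors, against 26.3% of excitatory neurons and 26.5% of astrocytes, whose median depths before thinning were 10559 and 1925 UMIs. OLIG2 was seen in 17.9% of precursors, and after thinning in 7.06% of precursors, against 0.0324% of excitatory neurons and 0.231% of astrocytes. PTPRZ1, a receptor phosphatase that carries chondroitin sulfate, was seen in 98.4% of precursors, and after thinning in 87.8% of precursors, against 16.2% of excitatory neurons and 68.4% of astrocytes.

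**Figure D1:**
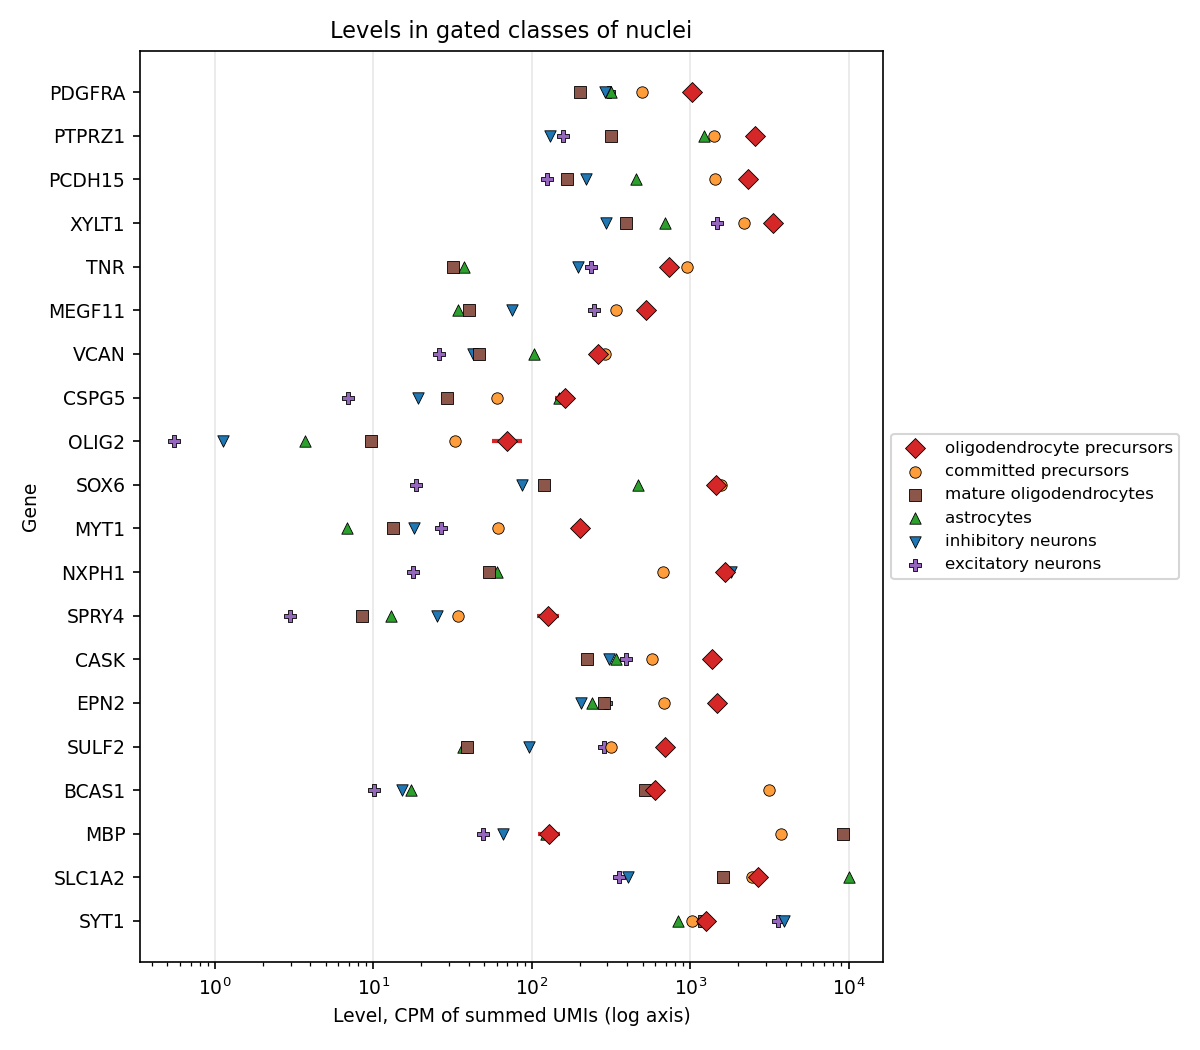
Level of 20 genes (rows) in the precursors and 5 other gated classes, in CPM of summed UMIs on a log axis; bars on the precursor diamonds are exact Poisson 95% intervals. PDGFRA, PTPRZ1, PCDH15, OLIG2, MYT1 and SPRY4 have their highest level in precursors, TNR and BCAS1 in committed precursors, MBP in mature oligodendrocytes and SLC1A2 in astrocytes. The gate of committed precursors counts BCAS1.

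Markers of neurons, of ependymal cells and of mature oligodendrocytes summed to less in precursors than in all other nuclei. Those of astrocytes, microglia, endothelial cells, mural cells and committed precursors summed to more. For endothelial and mural markers, the precursor sums of the 3 barcode sets lay on both sides of the pooled level in all other nuclei. Mature oligodendrocyte markers summed to 289 CPM in precursors, against 376 CPM in all other nuclei and 14815 CPM in mature oligodendrocytes, a difference that the myelin clause of the rule helps to set. Committed precursor markers summed to 2192 CPM in precursors, against 635 CPM in all other nuclei and 10043 CPM in committed precursors. That list holds ENPP6 and BMPER, which the rule caps, and BCAS1 and TNS3, and the committed gate counts all of these. The rule and that gate therefore help to set these sums. Microglial markers summed to 168 CPM in precursors and 69.1 CPM in all other nuclei. The sum was 232 CPM in committed precursors, 194 CPM in mature oligodendrocytes and 117 CPM in astrocytes. Against all other nuclei, 5 of 6 measured microglial markers were at least 2-fold higher in precursors, as were 12.3% of all measured genes. Endothelial markers summed to 132 CPM in precursors (57.2, 194 and 157 CPM in the sets) and 107 CPM in all other nuclei, with CLDN5 at 0 in precursors. Inhibitory neuron markers summed to 848 CPM in precursors, against 1785 CPM in all other nuclei and 7472 CPM in inhibitory neurons, with DLX6, DLX1 and PVALB at 0 in precursors. Excitatory neuron markers summed to 1613 CPM in precursors, against 4490 CPM in all other nuclei and 5535 CPM in excitatory neurons. The rule caps GAD1 and GAD2, on the inhibitory list, and RBFOX3, on the excitatory list. It therefore helps to set both neuron sums, as do the gates of the neuron classes. Ependymal markers summed to 1037 CPM in precursors and 1352 CPM in all other nuclei. Mural markers, with KCNJ8 at 0 in precursors, summed to 162 CPM in precursors (110, 97.2 and 298 CPM in the sets) and 133 CPM in all other nuclei. Astrocyte markers were the highest of these sums, at 7139 CPM in precursors, against 4337 CPM in all other nuclei, 23860 CPM in astrocytes and 1125 CPM in inhibitory neurons. All 12 astrocyte markers were seen in precursors. Of 11 measured ones, 9 were at least 2-fold higher there than in all other nuclei, against 12.3% of all measured genes.

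The precursors were next divided by these marker lists. In 114 of the 429 precursors (26.6%, 95% interval 22.5% to 31.0%) the marker list of another type reached or passed the UMIs of the 12 independent precursor markers: astrocyte in 99, ependymal in 8, excitatory neuron in 5 and endothelial in 2. These 114 had a median of 3523.5 UMIs and 8.5 UMIs of LHFPL3, against 2388 UMIs and 19 UMIs of LHFPL3 in the other 315. They held 36 of the 58 precursors presumed to be doublets, droplets with more than 1 nucleus. Presumed doublets were 13.5% of precursors and 13.7% of committed precursors, against 6.95% of all other nuclei. SLC1A2, the main glutamate transporter of astrocytes, stood at 5914 CPM in the 114 and 911 CPM in the 315, and the astrocyte filament gene GFAP at 332 CPM and 33.3 CPM. PDGFRA was 623 CPM in the 114 and 1251 CPM in the 315. All 3 genes are on the lists that divided the nuclei, so these directions follow from the split. Leaving the 114 out moved some values by over 1.5 times or ended a call, and values without them are given below for many of these, but not for all. Genes whose log2 ratio moved so, but which are given below without that value, include HHIP, BFSP2, CHST8, PAX6 and ID4. The share of nuclei in which precursor markers were ahead was 73.4% of precursors, 66.5% of committed precursors, 6.95% of mature oligodendrocytes, 2.48% of excitatory neurons, 0.427% of inhibitory neurons and 0 of 2661 astrocytes (a count of 0 allows up to 0.113%), whose gate asks for astrocyte markers.

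**Figure D2:**
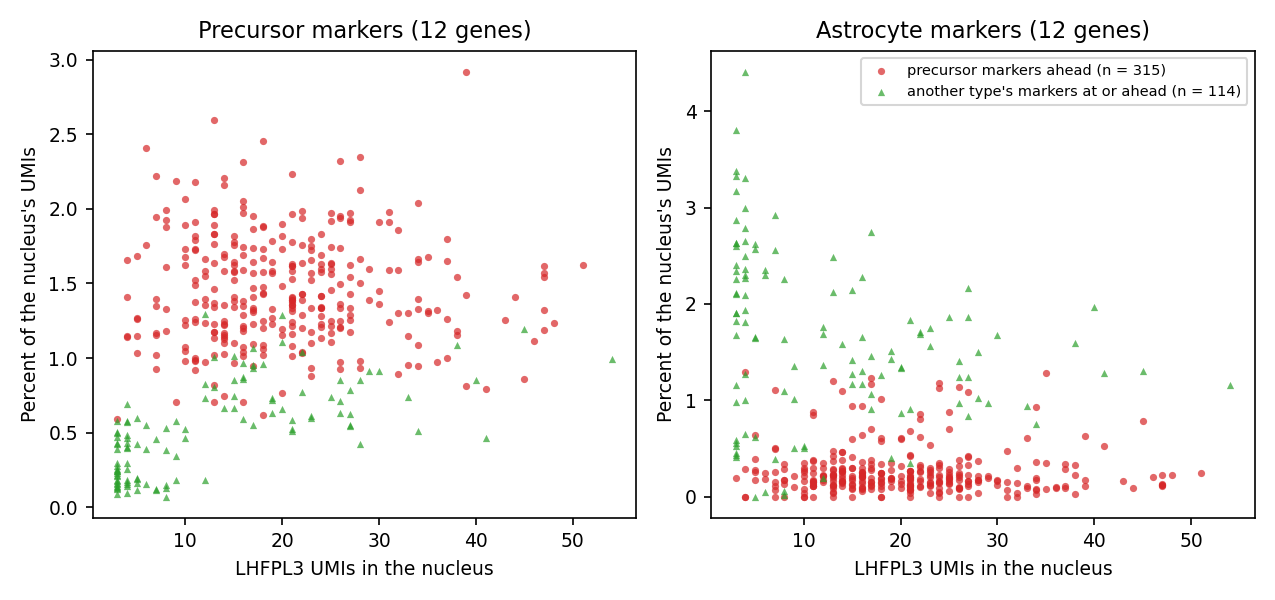
Each point is 1 of the 429 precursors, placed by its LHFPL3 UMIs and by the percent of its UMIs from 12 precursor markers that the rule did not use (left) or from 12 astrocyte markers (right). Triangles are the 114 nuclei in which another type's markers reached the precursor markers. They spread over the range of LHFPL3: 40 at 3 to 4 UMIs, 20 at 5 to 9, 25 at 10 to 19 and 29 at 20 or more. The 315 others (circles) hold fewer astrocyte than precursor marker UMIs by that definition.

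The clauses of the rule did unequal work. LHFPL3 at 3 or more UMIs was met by 5989 nuclei, and the marker sum, of which members held a median of 4 (lowest 2, highest 14), was the clause that alone excluded most nuclei, 1147. RBFOX3 alone excluded 130 nuclei, ENPP6 and BMPER 120, GAD1 and GAD2 37, and the myelin genes 26. At the LHFPL3 edge, the 26 members with exactly 3 UMIs had PDGFRA at 262 CPM and SLC1A2 at 6984 CPM, and the 44 nuclei just outside, with 2 UMIs, had 242 CPM and 4664 CPM. At the edge of the marker sum, the 119 members with 2 UMIs had PDGFRA at 826 CPM and PTPRZ1 at 2198 CPM, and the 268 nuclei just outside, with 1 UMI, had 457 CPM and 1462 CPM. The 120 nuclei kept out by ENPP6 and BMPER alone had PDGFRA at 718 CPM, BCAS1 at 2875 CPM and MBP at 1269 CPM. The 26 kept out by the myelin clause alone had PDGFRA at 567 CPM and MBP at 5680 CPM.

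Against all other nuclei, precursors had higher levels of genes of the lineage, of its growth factor response and of its matrix. The 20 genes furthest above, ranked by the lower bound of the log2 ratio, included the transcription factors OLIG2 and SOX6, the hyaluronan synthase HAS2, the proteoglycan CSPG4, the laminin chain LAMA4, the collagen IX chain COL9A3, the nidogen NID2, the Wnt inhibitor NKD1, the growth factor feedback inhibitor SPRY4 and cyclin D1 (CCND1). The 10 furthest below included the NMDA receptor subunit GRIN2A, the AMPA receptor partner CACNG3, the ephrin receptor EPHA6 and the HCN channel partner PEX5L. Of 10615 genes measured, 1308 were at least 2-fold higher in precursors (12.3%) and 966 at least 2-fold lower (9.1%), and 1256 and 953 of these kept the direction in each barcode set. A gene counted as measured with 50 or more UMIs on 1 of the sides, if in addition both sides were deep enough to give 10 UMIs at the higher level.

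NKAIN4, which encodes a partner of the sodium pump, stood furthest above: 67.5 CPM in precursors (63.6, 82.6 and 55.9 CPM in the 3 sets), against 0.812 CPM in all other nuclei, a log2 ratio of 6.38 (95% interval 5.96 to 6.79). HAS2 stood at 38.9 CPM in precursors and 0.825 CPM in all other nuclei. CSPG4 stood at 39.7 CPM in precursors and 0.905 CPM in all other nuclei. These genes had 85, 49 and 50 UMIs in precursors, and in all 3 sets the precursors were above. Against the mean level of the 5 other gated classes, each with equal weight, the log2 ratios were 3.94 for NKAIN4, 3.80 for HAS2 and 2.97 for CSPG4. GCGR, the glucagon receptor, had 27 UMIs in precursors, at 21.4 CPM, against 0.586 CPM in all other nuclei. The glial class nearest to precursors in each of these genes was the committed one, at 19.4 CPM of NKAIN4, 11.96 CPM of HAS2, 23.9 CPM of CSPG4 and 10.5 CPM of GCGR.

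ZCCHC24, a zinc finger gene, stood at 314 CPM in precursors (326, 294 and 319 CPM in the sets), against 15.1 CPM in all other nuclei, 159 CPM in mature oligodendrocytes and 2.43 CPM in excitatory neurons. SHD, an adaptor protein, stood at 36.5 CPM in precursors, against 29.9 CPM in committed precursors and 1.65 CPM in all other nuclei. NID2, a nidogen of basement membranes, stood at 50.02 CPM in precursors and 53.8 CPM in committed precursors, against 2.895 CPM in all other nuclei. Their log2 ratios over all other nuclei of 4.37, 4.47 and 4.11 were 2.05, 2.28 and 1.68 against the classes at equal weight. A pair of the 20 genes lost the call in that comparison. BCAS1 had a log2 ratio of 3.99 over all other nuclei and −0.29 at equal weight, and NEU4, a sialidase, had 4.72 and 0.51, both with their highest level in committed precursors. The gate of committed precursors counts BCAS1 and so helps to set its level there.

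The 10 genes furthest below were all highest in 1 of the neuron classes. CHST8, a sulfotransferase, had 1 UMI in precursors, against 61.7 CPM in excitatory neurons, and P4HA3, a collagen prolyl hydroxylase, had 3 UMIs in precursors, against 47.3 CPM in excitatory neurons. CACNG3 stood at 29.4 CPM in precursors and 28.3 CPM in astrocytes, against 212 CPM in excitatory neurons and 296 CPM in inhibitory neurons. PEX5L stood at 140 CPM in precursors, against 725 CPM in mature oligodendrocytes and 1138 CPM in excitatory neurons. GALNT17, a glycosyltransferase, stood at 195 CPM in precursors and 172 CPM in astrocytes, against 1774 CPM in excitatory neurons. At equal weight of the classes all 10 stayed at least 2-fold lower, with log2 ratios between −4.45 for CHST8 and −1.64 for KIAA1211L. Over all other nuclei the log2 ratio of CHST8 was −5.44 (95% interval −10.74 to −2.96), and −4.73 without barcode set 1. Its 1 UMI was in set 3, and without that set the ratio was at most −3.38, with 3 UMIs taken as the floor for precursors. The log2 ratio of P4HA3 was −4.02 (−6.30 to −2.48), and its 3 UMIs were all in set 1, without which it was at most −3.33 on the same floor.

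Transcription factors of the lineage were mostly higher in precursors than in all other nuclei. Of 28 measured factors on the list, 19 were at least 2-fold higher and 2 lower (12.3% and 9.1% over all genes). Their median log2 ratio was near 1.5, against 0.13 over all measured genes. Against the mean of the other gated classes at equal weight (here called equal class weights) 7 of 23 were higher and 3 lower, against 3.83% and 5.49% of all 8710 genes measured so. Without the 114 nuclei 12 of 23 were higher and 2 lower, against 10.8% and 11.3% of all 9280 genes. OLIG2, without which no oligodendrocyte lineage forms in mice, stood at 69.9 CPM in precursors (80.5, 55.9 and 71.8 CPM in the sets), against 32.9 CPM in committed precursors, 9.71 CPM in mature oligodendrocytes, 3.67 CPM in astrocytes and 0.548 CPM in excitatory neurons. MYT1, a zinc finger factor of neural progenitors, stood at 202 CPM in precursors (197, 223 and 186 CPM in the sets), against 61.3 CPM in committed precursors, 13.4 CPM in mature oligodendrocytes, 6.80 CPM in astrocytes and 26.9 CPM in excitatory neurons. Both were highest in precursors, lower in committed precursors and lower again in mature oligodendrocytes, and the log2 ratio of OLIG2 over all other nuclei, 5.33, was 2.87 at equal class weights. In 1 random thinning of every nucleus to 1000 UMIs, OLIG2 over committed precursors was at 0.084 on the log2 scale. In the separate thinning that gave the detection shares above, OLIG2 was seen in 7.06% of precursors and 3.14% of committed precursors.
SOX6, which represses myelin genes in precursors in mice and is 1 of the 5 genes that label the precursors here though no clause counts it, differed from that order, with 1451 CPM in precursors and 1561 CPM in committed precursors, against 119 CPM in mature oligodendrocytes and 466 CPM in astrocytes. ZEB1, a zinc finger repressor, stood at 818 CPM in precursors, against 429 CPM in committed precursors, 457 CPM in astrocytes and 121 CPM in mature oligodendrocytes. The list members lower in precursors than in all other nuclei were MYT1L, a neuronal factor (89.7 CPM in precursors, against 552.5 CPM in inhibitory neurons), and ST18, a factor of mature oligodendrocytes here (46.8 CPM in precursors, against 675 CPM in mature oligodendrocytes). Several factors on the list were shared with astrocytes. Over astrocytes only 4 of 26 were at least 2-fold higher, MYT1, OLIG2, SOX6 and SOX13, and 3 were lower, PAX6, ID4 and HES1. Over all genes 5.23% were higher and 9.19% lower there.

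Of the growth factor genes, the receptor PDGFRA, the feedback inhibitor SPRY4 and cyclin D1 were higher in precursors. Of 41 measured genes, 15 were at least 2-fold higher in precursors than in all other nuclei and 3 lower (12.3% and 9.1% over all genes). Their median log2 ratio was 0.56. At equal class weights 4 of 35 were higher and 1 lower (3.83% and 5.49% over all genes), and without the 114 nuclei 11 of 36 were higher and 4 lower (10.8% and 11.3% over all genes). PDGFRA was 1011, 1151 and 910 CPM in precursors of the 3 sets, against 312 CPM in all other nuclei, a log2 ratio of 1.72. SPRY4, a Sprouty inhibitor that growth factor signalling itself induces, stood at 127 CPM in precursors (133, 134 and 112 CPM in the sets), against 34.4 CPM in committed precursors, 8.497 CPM in mature oligodendrocytes, 12.9 CPM in astrocytes, 25.2 CPM in inhibitory neurons and 2.97 CPM in excitatory neurons. CCND1, the cyclin through which mitogens start the cell cycle, stood at 72.3 CPM in precursors, against 32.9 CPM in committed precursors, 4.86 CPM in mature oligodendrocytes and 7.35 CPM in astrocytes. SPRY4 and CCND1 were higher in precursors than in each of the other gated classes in every barcode set. Other receptors of the list did not share that pattern. FGFR1 stood at 306 CPM in precursors and 559 CPM in astrocytes, FGFR2 at 239 CPM in precursors and 716 CPM in astrocytes, and EGFR at 200 CPM in precursors and 294 CPM in astrocytes. The log2 ratio of FGFR2 over astrocytes was −1.58, and −2.84 without the 114 nuclei. IGF1, a growth factor, had 7 UMIs in precursors, at 5.56 CPM, against 213 CPM in inhibitory neurons.

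Of the genes of the chondroitin sulfate and hyaluronan matrix, more were higher than lower in precursors against all other nuclei. Of 34 measured, 20 were at least 2-fold higher in precursors than in all other nuclei and 3 lower (12.3% and 9.1% over all genes). Their median log2 ratio was 1.32. With equal class weights the count was 12 higher and 2 lower of 30 (3.83% and 5.49% over all genes). Over astrocytes it was 10 higher and 6 lower of 32 (5.23% and 9.19% over all genes), with a median log2 ratio of 0.07. PTPRZ1 stood at 2554 CPM in precursors (2579, 2616 and 2456 CPM in the sets), against 1413 CPM in committed precursors, 317 CPM in mature oligodendrocytes, 1221 CPM in astrocytes and 158 CPM in excitatory neurons. XYLT1, the enzyme that starts chondroitin sulfate chains, stood at 3320 CPM in precursors (3236, 3738 and 2966 CPM), against 2178 CPM in committed precursors, 395 CPM in mature oligodendrocytes, 688 CPM in astrocytes and 1475 CPM in excitatory neurons. TNR, the matrix protein tenascin-R, was instead highest in committed precursors: 737 CPM in precursors and 954 CPM in committed precursors, against 31.6 CPM in mature oligodendrocytes and 37.3 CPM in astrocytes.
VCAN, the proteoglycan versican, stood at 260 CPM in precursors and 289 CPM in committed precursors, against 46.1 CPM in mature oligodendrocytes and 103.8 CPM in astrocytes. CSPG5, neuroglycan C, and BCAN, brevican, were shared with astrocytes, at 162 CPM and 353 CPM in precursors, against 147 CPM and 350 CPM in astrocytes. SULF2, an enzyme that removes sulfate from heparan chains, stood at 690 CPM in precursors (680, 753 and 633 CPM), against 314 CPM in committed precursors, 38.8 CPM in mature oligodendrocytes, 36.6 CPM in astrocytes and 287 CPM in excitatory neurons. SMOC1, a secreted calcium-binding matrix protein, was higher in committed precursors, at 235 CPM in precursors and 543 CPM in committed precursors, and its log2 ratio over all other nuclei of 3.53 was 0.54 at equal class weights. The matrix gene that stood furthest below, SPOCK1, is a proteoglycan, with 172 CPM in precursors, against 1104 CPM in excitatory neurons.

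Of 38 measured collagens, laminins and integrins, 15 were at least 2-fold higher in precursors than in all other nuclei and 6 lower (12.3% and 9.1% over all genes). At equal class weights 5 of 29 were higher and 2 lower (3.83% and 5.49% over all genes). Collagen IX, of which the rule counts COL9A1, had both other chains above all other nuclei: COL9A3 stood at 19.9 CPM in precursors, against 1.04 CPM in all other nuclei, and COL9A2 at 72.3 CPM in precursors, against 6.85 CPM in all other nuclei. COL9A2 was higher still in committed precursors, at 118 CPM, and its log2 ratio of 3.40 was 0.62 at equal class weights. LAMA4 stood at 238 CPM in precursors (256, 240 and 213 CPM), against 112 CPM in committed precursors, 30.3 CPM in mature oligodendrocytes, 97.0 CPM in astrocytes and 3.94 CPM in excitatory neurons.

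Receptors for glutamate and GABA, through which precursors receive synapses, were lower than in all other nuclei more often than higher, and over astrocytes those for glutamate were more often higher. Of 36 measured genes of glutamate receptors and their partners, 5 were at least 2-fold higher in precursors than in all other nuclei and 10 lower, with a median log2 ratio of −0.38. None of 13 measured GABA receptor genes was at least 2-fold higher and 8 were lower. For both lists the shares over all genes were 12.3% higher and 9.1% lower. With equal class weights 1 of 12 GABA receptor genes was higher and 3 were lower (3.83% and 5.49% over all genes). Without the 114 nuclei 1 of 13 was higher and 11 were lower (10.8% and 11.3% over all genes). Over astrocytes, 12 of 33 glutamate receptor genes were at least 2-fold higher in precursors and 2 lower, with a median log2 ratio of 0.71, against −0.09 over all 9820 genes measured in that comparison. There, 514 genes (5.23%) were at least 2-fold higher in precursors than in astrocytes and 902 (9.19%) lower. GRIA4, which forms AMPA receptors, had 317 CPM in precursors (312, 330 and 309 CPM), against 66.7 CPM in astrocytes, 33.2 CPM in excitatory neurons and 1502 CPM in inhibitory neurons. GRIA2, the subunit that blocks calcium entry once edited, stood at 788 CPM in precursors and 352 CPM in astrocytes. GRIK1, a kainate receptor subunit, stood at 725 CPM in precursors, against 208 CPM in astrocytes and 2673 CPM in inhibitory neurons. Over committed precursors the log2 ratios were −0.04 for GRIA4, −0.57 for GRIA2 and 0.75 for GRIK1, all under 2-fold.
CACNG4, an AMPA receptor partner of the stargazin family, stood at 86.6 CPM in precursors (78.4, 92.3 and 90.5 CPM), against 44.9 CPM in committed precursors, 46.8 CPM in astrocytes and 6.47 CPM in excitatory neurons. GABRA3, a GABA-A receptor subunit, stood at 56.4 CPM in precursors, against 7.17 CPM in astrocytes and 6.07 CPM in mature oligodendrocytes. The log2 ratio of GABRA3 over committed precursors was 0.65. The NMDA receptor subunit GRIN2A stood at 46.1 CPM in precursors and 72.9 CPM in astrocytes, against 353 CPM in excitatory neurons, and GRIA1 at 659 CPM in precursors and 619 CPM in astrocytes, against 3606 CPM in excitatory neurons. GRM3, a metabotropic receptor of astrocytes, stood at 307 CPM in precursors, and at 139.5 CPM without the 114 nuclei, against 1182 CPM in astrocytes.

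Of voltage-gated and inward rectifier channels, many were lower than in all other nuclei and many higher than in astrocytes. Against all other nuclei, 7 of 57 measured channel genes were at least 2-fold higher in precursors and 19 lower (12.3% and 9.1% over all genes). Over astrocytes 20 of 50 were higher and 1 lower (5.23% and 9.19% over all genes), with a median log2 ratio of 0.72. At equal class weights 6 of 53 were higher and 7 lower (3.83% and 5.49% over all genes). KCND2, the pore of the A-type potassium current for which precursors are known, stood at 2199 CPM in precursors (2090, 2218 and 2315 CPM), against 1182 CPM in committed precursors, 287 CPM in mature oligodendrocytes, 407 CPM in astrocytes and 1244 CPM in excitatory neurons. Its log2 ratio over all other nuclei, 1.01, was 0.998 without barcode set 2, 0.985 without set 3 and 0.915 with an LHFPL3 minimum of 2 UMIs. The auxiliary subunit of its channel, DPP6, stood at 3325 CPM in precursors, against 544 CPM in mature oligodendrocytes and 444 CPM in astrocytes. The log2 ratio of DPP6 over committed precursors was 0.64. KCNJ16, an inward rectifier subunit, stood at 29.4 CPM in precursors, against 10.7 CPM in astrocytes and 1.37 CPM in excitatory neurons. KCNJ10, its partner Kir4.1, was lower in precursors than in astrocytes by under 2-fold, at 50.02 CPM in precursors and 96.46 CPM in astrocytes, and its log2 ratio over all other nuclei, 2.02, was 0.21 at equal class weights. The channel gene furthest below all other nuclei was CACNA1H, a T-type calcium channel, with 3 UMIs in precursors, at 2.38 CPM, against 25.3 CPM in excitatory neurons.

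Adhesion molecules were among the genes furthest above astrocytes. Against all other nuclei, 12 of 62 were at least 2-fold higher in precursors and 15 lower (12.3% and 9.1% over all genes). Over astrocytes 21 of 61 were higher and 0 lower (5.23% and 9.19% over all genes). Without the 114 nuclei 22 of 60 were higher than in astrocytes and 2 lower, against 626 and 1328 of all 9247 genes. NXPH1, a secreted neurexin ligand, stood at 1659 CPM in precursors (1700, 1827 and 1423 CPM), against 1798 CPM in inhibitory neurons, 676 CPM in committed precursors, 53.4 CPM in mature oligodendrocytes, 60.1 CPM in astrocytes and 17.7 CPM in excitatory neurons. MEGF11, a receptor that spaces neurons of 1 type in the mouse retina, stood at 526 CPM in precursors, against 340 CPM in committed precursors, 40.1 CPM in mature oligodendrocytes, 34.4 CPM in astrocytes and 248 CPM in excitatory neurons. PTPRT, a receptor phosphatase, stood at 507 CPM in precursors, against 184 CPM in committed precursors, 22.1 CPM in astrocytes and 829 CPM in inhibitory neurons. DSCAM stood at 776 CPM in precursors and 770 CPM in committed precursors, against 95.9 CPM in astrocytes and 418 CPM in excitatory neurons. The protocadherin PCDH15, best known from hair cells of the ear, stood at 2327 CPM in precursors (2192, 2516 and 2291 CPM), against 1433 CPM in committed precursors, 166 CPM in mature oligodendrocytes, 456 CPM in astrocytes and 124 CPM in excitatory neurons. MEGF10, a receptor for engulfing cell debris, was lower in precursors than in astrocytes by under 2-fold, with 120 CPM in precursors and 234 CPM in astrocytes.

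Of 42 measured axon guidance genes, 5 were at least 2-fold higher in precursors than in all other nuclei and 16 lower, with a median log2 ratio of −0.60. The share higher was near the 12.3% of all measured genes, and 9.1% of all were lower. SEMA5A, a semaphorin, stood at 1164 CPM in precursors and 1769 CPM in committed precursors, against 73.7 CPM in astrocytes and 140 CPM in excitatory neurons. NTNG1, netrin-G1, which is tethered to the membrane, stood at 991 CPM in precursors (1056, 1027 and 870 CPM), against 519 CPM in committed precursors, 76.5 CPM in mature oligodendrocytes, 185 CPM in astrocytes and 466 CPM in inhibitory neurons. Ephrin receptors were 5 of the 16 lower genes, among them EPHA6 (437.5 CPM in precursors and 512 CPM in astrocytes, against 3831 CPM in excitatory neurons) and EPHA4 (143 CPM in precursors and 152 CPM in astrocytes, against 736 CPM in excitatory neurons).

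Notch, BMP, Wnt and hedgehog genes were higher than in all other nuclei more often than lower, and over astrocytes more often lower. Of 38 measured, 16 were at least 2-fold higher in precursors than in all other nuclei and 2 lower (12.3% and 9.1% over all genes). With equal class weights 6 of 36 were higher and 2 lower (3.83% and 5.49% over all genes). Over astrocytes 3 of 36 were higher and 17 lower (5.23% and 9.19% over all genes), with a median log2 ratio of −0.76. NKD1, an inhibitor that Wnt signalling induces, stood at 80.2 CPM in precursors (57.2, 112 and 74.5 CPM), against 52.4 CPM in committed precursors, 10.9 CPM in mature oligodendrocytes, 15.3 CPM in astrocytes and 1.96 CPM in excitatory neurons. NOTCH1, the receptor that holds precursors back from differentiating, was near the astrocyte level, with 149 CPM in precursors and 129 CPM in astrocytes, against 40.1 CPM in mature oligodendrocytes and 2.72 CPM in excitatory neurons. LINGO1, an inhibitor of differentiation, stood at 132 CPM in precursors, against 50.5 CPM in astrocytes and 232 CPM in excitatory neurons. The hedgehog effectors GLI2 and GLI3 were lower in precursors than in astrocytes. GLI3 stood at 198.5 CPM in precursors, and at 80.3 CPM without the 114 nuclei, against 740 CPM in astrocytes. It is on the astrocyte list, so the direction of that drop follows from the split of the nuclei. GLI2, which is not on the list, stood at 32.6 CPM in precursors, and at 13.6 CPM without the 114 nuclei, against 127 CPM in astrocytes.

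Among 35 measured G protein-coupled and purinergic receptors, 6 were at least 2-fold higher in precursors than in all other nuclei and 12 lower. Among 43 measured solute carriers and transmitter enzymes 9 were higher and 8 lower, and over all genes 12.3% were higher and 9.1% lower. Without the 114 nuclei 3 of 32 receptors were higher and 15 lower (10.8% and 11.3% over all genes). CALCRL, the receptor that binds CGRP or adrenomedullin with its RAMP partners, stood at 192 CPM in precursors (159, 192 and 234 CPM) and 129 CPM in committed precursors, against 10.9 CPM in mature oligodendrocytes, 7.17 CPM in astrocytes and 12.3 CPM in excitatory neurons. SLC22A3, an organic cation transporter, stood at 164 CPM in precursors, against 73.3 CPM in committed precursors, 7.28 CPM in mature oligodendrocytes, 42.1 CPM in astrocytes and 5.37 CPM in excitatory neurons. SLC8A3, a sodium and calcium exchanger, stood at 107 CPM in precursors and 10.8 CPM in astrocytes. SLC12A5, the chloride pump of neurons, had 13 UMIs in precursors, at 10.3 CPM, against 75.8 CPM in excitatory neurons. A further list of 64 genes known from precursors had 51 members measured, of which 37 were at least 2-fold higher in precursors than in all other nuclei and 2 lower, with a median log2 ratio of 1.56. At equal class weights 23 of 50 were higher and 0 lower (3.83% and 5.49% over all genes).

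**Figure D3:**
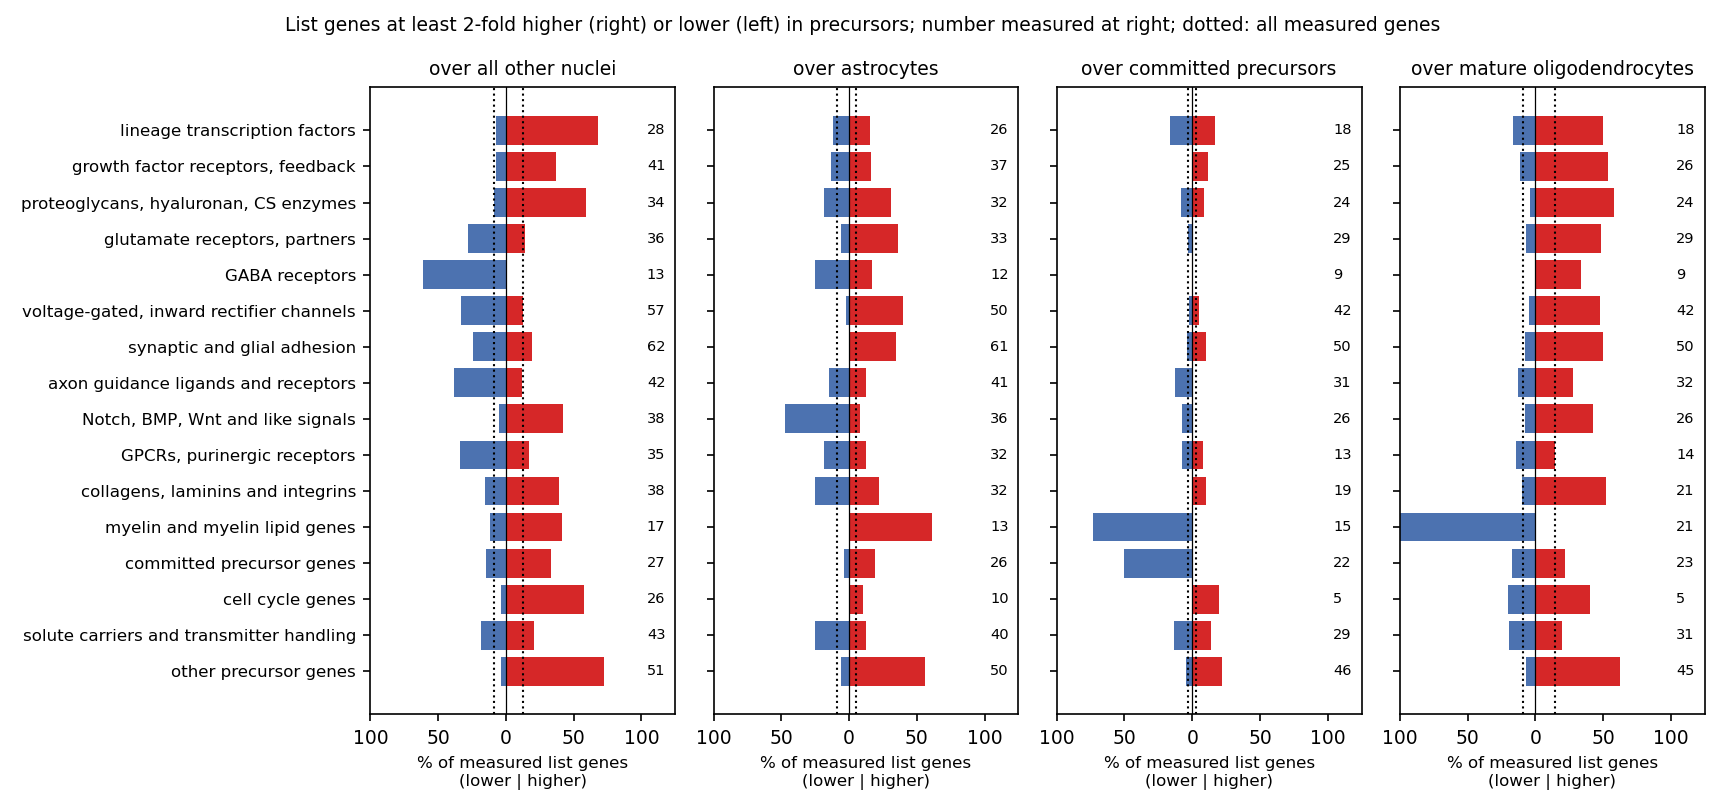
Percent of the measured genes of 16 lists that were at least 2-fold higher (to the right) or lower (to the left) in precursors, in 4 comparisons; numbers at the right edge of each panel give the genes measured, and dotted lines mark the percent of all measured genes called. Matrix, lineage and precursor lists stand to the right of the dotted lines against all other nuclei, channel and adhesion lists do so over astrocytes, and myelin genes stand to the left against committed precursors and mature oligodendrocytes. The myelin clause of the rule and the gates help to set the place of the myelin genes.

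Few genes were highest in precursors by a wide margin. Of 4877 genes measured against all 5 other gated classes, 33 (0.677%) were at least 2-fold above each of them, and 32 of the 33 were above each class in every barcode set. The exception, EBF1, is on the marker list of mural cells: it stood at 14.8, 34.0 and 120 CPM in precursors of the 3 sets, and was at 29.6 CPM without the 114 nuclei, against 25.5 CPM in mature oligodendrocytes. The genes with the largest gap to the nearest class were ENPP1, an enzyme that makes pyrophosphate from ATP (55.6 CPM in precursors, against 11.96 CPM in committed precursors), SPRY4, NKAIN4 and MYT1. CREB3L1, a transcription factor held in the endoplasmic reticulum, followed at 62.7 CPM in precursors, against 19.4 CPM in committed precursors. ST6GAL1, a sialyltransferase, stood at 544 CPM in precursors (494, 590 and 556 CPM), against 205 CPM in committed precursors, 35.2 CPM in mature oligodendrocytes and 71.5 CPM in astrocytes. ADAM12, a metalloprotease, stood at 291 CPM in precursors (225, 359 and 301 CPM), against 92.7 CPM in committed precursors, 9.003 CPM in astrocytes and 111 CPM in inhibitory neurons, and its log2 ratio over astrocytes, 5.02, was 5.62 without barcode set 1. CASK, a scaffold that binds neurexins, stood at 1371 CPM in precursors (1287, 1618 and 1205 CPM), against 573 CPM in committed precursors, 392 CPM in excitatory neurons and 341 CPM in astrocytes. EPN2, an endocytic adaptor, stood at 1467 CPM in precursors, against 682 CPM in committed precursors and 295 CPM in excitatory neurons. KIF13A, a kinesin motor, stood at 1315 CPM in precursors, against 630 CPM in committed precursors and 353 CPM in astrocytes. MAP3K1, a kinase above the JNK pathway, stood at 276 CPM in precursors, against 120 CPM in committed precursors. PDGFRA, OLIG2, CCND1, SULF2 and LAMA4 were also among the 33. Their log2 ratios over committed precursors were near the 2-fold line and passed below it with 1 barcode set left out: 0.94 for CCND1 and 0.94 for SULF2 without set 2, and 0.97 for OLIG2 and 0.99 for LAMA4 without set 3. PDGFRA stayed above it with each set left out.

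Against astrocytes, the 8 genes furthest above in precursors included BCAS1, NXPH1, ADAM12, MYT1 and CALCRL. BCAS1, a gene of early myelinating cells, stood at 603 CPM in precursors and 17.3 CPM in astrocytes, a log2 ratio of 5.13 (95% interval 4.82 to 5.45). VSTM2B, a membrane protein, stood at 83.4 CPM in precursors and 2.39 CPM in astrocytes. On the low side stood enzymes and transporters of astrocytes, and here the values without the 114 nuclei were further below astrocytes. For SLC1A2 and SLC1A3, which are on the astrocyte list, the split of the nuclei fixes that direction. SLC1A2 stood at 2697 CPM in precursors (2671, 2808 and 2607 CPM), and at 911 CPM without the 114 nuclei, against 10066 CPM in astrocytes, log2 ratios of −1.90 and −3.47. ALDH1A1, a retinoic acid enzyme, stood at 172 CPM in precursors, and at 42.0 CPM without the 114 nuclei, against 752 CPM in astrocytes. ACSBG1, a fatty acid enzyme, stood at 83.4 CPM, and at 20.99 CPM without them, against 395 CPM in astrocytes. ETNPPL, a phosphoethanolamine enzyme, stood at 62.7 CPM, and at 19.8 CPM without them, against 360 CPM in astrocytes. CLDN10, a claudin, stood at 22.2 CPM, and at 3.70 CPM without them, against 124 CPM in astrocytes. The glutamate transporter SLC1A3, which the astrocyte gate counts, stood at 821 CPM in precursors and 458 CPM without the 114 nuclei, against 3055 CPM in astrocytes and 47.6 CPM in excitatory neurons. Of the gated astrocytes, 723 (27.2%) held at least 3 UMIs of ependymal markers, and leaving those out ended 0 of 49 calls over astrocytes.

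Against committed precursors, few genes differed, and those lower in precursors included the genes of myelination. Of 4923 genes measured, 143 (2.9%) were at least 2-fold higher in precursors and 161 (3.27%) lower. The gate of the committed class counts BCAS1, TNS3, ENPP6 and BMPER, which therefore stand outside these counts, and the rule kept myelin-gene and ENPP6 or BMPER nuclei out of the precursors. Higher in precursors were SPRY4, with a log2 ratio of 1.88 (95% interval 1.25 to 2.58), MYT1 at 1.72 (1.24 to 2.24), ADAM12 at 1.65 (1.26 to 2.06) and SEZ6L, a complement-domain protein of the brain, at 1.54 (1.20 to 1.89). PDGFRA was near the 2-fold line at 1.05, and with an LHFPL3 minimum of 2 UMIs at 0.96. OLIG2 was at 1.09, at 0.98 with that minimum and at 0.084 in 1 random thinning of nuclei to 1000 UMIs. A separate thinning had OLIG2 in 7.06% of precursors and 3.14% of committed precursors. RELN, FHAD1, ADGB and CCDC146 also ranked among the 8 genes furthest above, with values that were smaller, or changed sign, without the 114 nuclei. RELN, the matrix protein reelin, had 149 of its 195 UMIs in precursors in 1 nucleus, and its log2 ratio of 1.84 was −0.58 without barcode set 3. FHAD1 stood at 55.6 CPM in precursors, and at 17.3 CPM without the 114 nuclei, against 7.48 CPM in committed precursors, and its log2 ratio, 2.89, was 3.69 without barcode set 1. CCDC146 stood at 88.1 CPM in precursors, and at 20.99 CPM without the 114 nuclei, against 22.4 CPM in committed precursors, and ADGB, androglobin, at 45.3 CPM in precursors, and at 12.3 CPM without the 114 nuclei, against 5.98 CPM in committed precursors.

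Myelin genes were lower in precursors than in committed precursors, 11 of 15 measured by at least 2-fold and none higher, with a median log2 ratio of −2.01. Of all 4923 genes measured in that comparison, 2.9% were higher and 3.27% lower. The myelin clause of the rule helps to set this difference, as do ENPP6 and BMPER, which the rule caps and the committed gate requires. The same clauses help to set the direction of the committed-stage genes below. MBP, a main protein of compact myelin that no clause counts, stood at 129 CPM in precursors (89.87 to 165.3 CPM in the sets), against 3754 CPM in committed precursors, a log2 ratio of −4.87. MYRF, the factor that switches on myelin genes, had 19 UMIs in precursors, at 15.1 CPM, against 259 CPM in committed precursors. TCF7L2, the Wnt effector of the committed stage in mice, stood at 534 CPM in precursors (504, 610 and 490 CPM), against 2142 CPM in committed precursors. Of 22 measured genes listed for the committed stage, 11 were at least 2-fold lower in precursors and none higher (3.27% and 2.9% over all genes). They included SIRT2, a deacetylase of myelin (138 CPM in precursors, against 781 CPM in committed precursors), FYN, a kinase of early myelination (434 CPM, against 1340 CPM), and FRMD4A, a scaffold of cell polarity (2218 CPM, against 14060 CPM). BFSP2, a filament gene known from the lens, had 3 UMIs in precursors, at 2.38 CPM, against 163 CPM in committed precursors. TMEM108, a membrane protein, stood at 175 CPM in precursors and 1763 CPM in committed precursors. Of 29 measured glutamate receptor genes 0 were at least 2-fold higher in precursors than in committed precursors and 1 was lower, DLG1. Of 9 GABA receptor genes 0 were higher and 0 lower. For both lists the shares over all genes were 2.9% higher and 3.27% lower. Without the 114 nuclei 3 of 26 glutamate receptor genes were higher and 3 lower, against 4.17% and 5.89% of all 3619 genes measured so.

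Against mature oligodendrocytes, 723 of 5073 genes (14.3%) were at least 2-fold higher in precursors and 480 (9.46%) lower, and of 29 measured glutamate receptor genes 14 were at least 2-fold higher and 2 lower, with a median log2 ratio of 0.94. Of 42 channel genes 20 were higher and 2 lower, and of 50 adhesion genes 25 were higher and 4 lower. NXPH1 had a log2 ratio of 4.96 (95% interval 4.53 to 5.42), TNR 4.55 (3.98 to 5.17), SYN3, a synapsin, 4.58 (3.868 to 5.396) and CA10, an inactive carbonic anhydrase that binds neurexins, 3.91 (3.57 to 4.28). SUSD5 had 119 UMIs in precursors, at 94.5 CPM, and 0 UMIs in mature oligodendrocytes, so that its log2 ratio was at least 4.70 with 3 UMIs taken as the floor over the class, and at least 4.08 on that floor without barcode set 3. Without set 1 the ratio of TNR was 5.18. All 21 measured myelin genes were at least 2-fold lower in precursors, with a median log2 ratio of −3.96, a difference that the myelin clause of the rule and the gate of mature oligodendrocytes help to set. MBP stood at 129 CPM in precursors and 9189 CPM in mature oligodendrocytes, and RNF220, a ubiquitin ligase, at 92.9 CPM in precursors and 4079 CPM in mature oligodendrocytes. HHIP, a hedgehog inhibitor, stood at 23.8 CPM in precursors, against 97.2 CPM in committed precursors and 767 CPM in mature oligodendrocytes. UNC5C, a netrin receptor, stood near the committed level, with 423 CPM in precursors and 467 CPM in committed precursors, against 2455 CPM in mature oligodendrocytes.

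**Figure D4:**
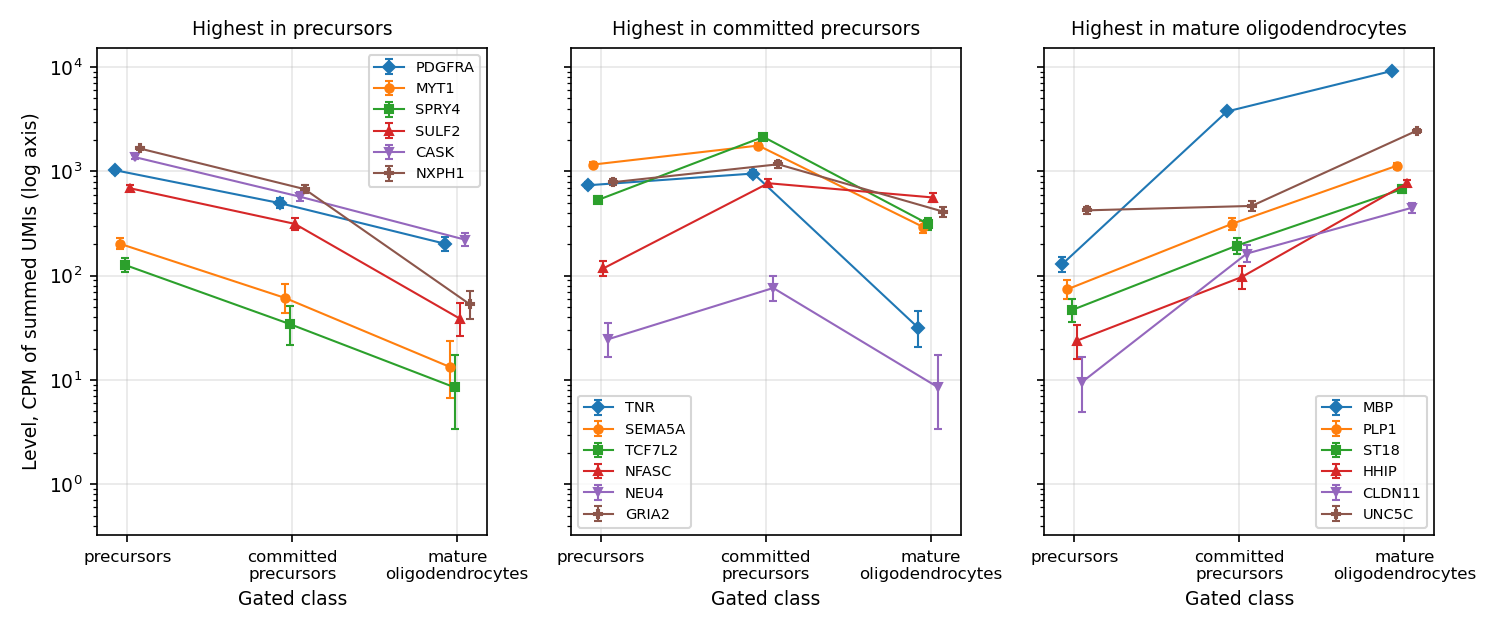
Level in CPM (log axis) of 18 genes in precursors, committed precursors and mature oligodendrocytes, with exact Poisson 95% intervals; the genes of each panel were chosen after their values were seen. PDGFRA, MYT1 and SPRY4 are highest in precursors, TNR, TCF7L2 and NEU4 in committed precursors, and MBP in mature oligodendrocytes, while UNC5C is alike in precursors and committed precursors.

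Within the precursors most genes varied little beyond counting. Over 4890 genes the median ratio of the variance between nuclei to that of Poisson sampling at each nucleus's depth was 1.13, and 210 genes (4.29%) exceeded 2. The most uneven were RELN at 40.5, SLC1A2 at 15.0 and DPP10, a potassium channel subunit with 199 of its 2460 UMIs in 1 nucleus, at 11.8. Among the 315 nuclei with precursor markers ahead, BCAS1 was the most uneven gene at 6.45, followed by the neuronal adhesion gene TENM2 at 6.09 and the splicing factor RBFOX1 at 5.53.

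The count of LHFPL3 itself marked a gradient among members. In the 45 members with 3 or 4 LHFPL3 UMIs, 40 had another type's markers ahead, PDGFRA stood at 318 CPM, TNR at 99.3 CPM and SLC1A2 at 7637 CPM. In the 43 members with 5 to 9 UMIs these were 20 nuclei and 642, 456 and 3071 CPM. In the 157 members with 10 to 19 UMIs they were 25 nuclei and 1157, 720 and 2153 CPM. In the 184 members with 20 or more they were 29 nuclei and 1136, 907 and 2174 CPM. PDGFRA and SLC1A2 were alike in both upper bands, and in the lowest band astrocyte markers exceeded precursor markers, at 18631 CPM against 3694 CPM of the independent precursor markers.

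BCAS1 divided the 315 nuclei in another way. It was at 0 in 94, at 1 to 2 UMIs in 144, at 3 to 9 in 69 and at 10 or more in 8, with 41 UMIs in the highest. TNS3, which marks committed cells with BCAS1, stood at 401, 455, 663 and 2429 CPM in the 4 bands, in that order. TCF7L2 stood at 445, 542, 521 and 1308 CPM and FYN at 353, 308, 397 and 1526 CPM. PDGFRA stood at 1186, 1390, 1179 and 529 CPM, MYT1 at 260, 283, 331 and 93.4 CPM, and CASK at 1825, 1812, 1581 and 561 CPM. SPRY4 stood at 198, 188 and 163 CPM in the first 3 bands and had no UMI in the last. Apart from TNS3, the first 3 bands differed little in these genes, and the 8 nuclei of the last band, too few to carry a trend, had higher TNS3, TCF7L2 and FYN and lower PDGFRA, MYT1 and CASK. The astrocyte marker SLC1A2 moved with them, at 908, 807, 907 and 2149 CPM in the 4 bands, and its part in these values was not tested. MBP also had no UMI in those 8 nuclei, where 3 UMIs would give 93.4 CPM. The bands were chosen after the values were seen.

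**Figure D5:**
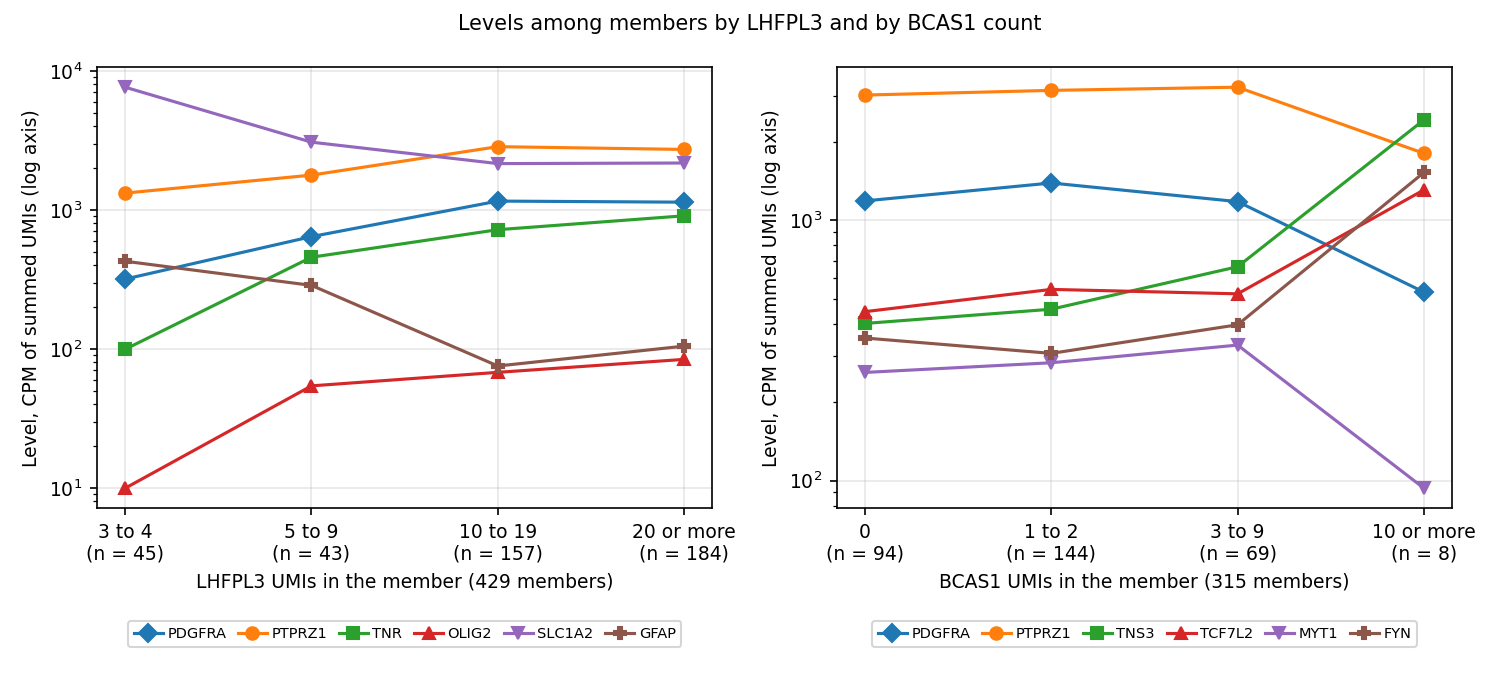
Level in CPM (log axis) of 6 genes by LHFPL3 count over all 429 precursors (left) and of 6 genes by BCAS1 count over the 315 with precursor markers ahead (right); n is the number of nuclei in a band. SLC1A2 and GFAP are high and PDGFRA and TNR low where LHFPL3 is at 3 to 4 UMIs, and the 8 nuclei with at least 10 BCAS1 UMIs have high TNS3, TCF7L2 and FYN with low PDGFRA and MYT1, and also hold more SLC1A2 (not drawn by BCAS1 count), at 2149 CPM.

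Precursors are the main dividing cells of the adult brain, and few of these nuclei held several UMIs of cell cycle genes. The 18 core genes of DNA replication and mitosis summed to 180 UMIs in precursors, or 143 CPM (exact Poisson 95% interval 122.8 to 165.4), against 115 CPM in committed precursors (90.9 to 144), 82.5 CPM in mature oligodendrocytes, 56.0 CPM in astrocytes, 66.6 CPM in inhibitory neurons and 61.7 CPM in excitatory neurons. Of the 429 nuclei, 9 held 3 or more of these UMIs, and 1 held 27. So did 4 of 161 committed precursors, 0 of 374 mature oligodendrocytes and 2 of 2661 astrocytes. Among the deeper neurons it was 36 of 1406 inhibitory and 240 of 6177 excitatory ones. The highest count was 22 in a committed precursor and 21 in an astrocyte. TOP2A, a topoisomerase of dividing cells, had 20 UMIs in 10 precursors, 18 of them in barcode set 1, and its log2 ratio over all other nuclei, 1.76, was −0.84 without that set. KIF11, a motor of the mitotic spindle, had 15 UMIs in 7 precursors, all in barcode set 1, and a log2 ratio over all other nuclei of 3.21. Without that set it had 0 UMIs in precursors, and the ratio was at most 1.71 with 3 UMIs taken as the floor. MKI67, the proliferation marker, had 6 UMIs in 5 precursors. Of 26 measured cell cycle genes, 15 were at least 2-fold higher in precursors than in all other nuclei and 1 lower, against 12.3% and 9.1% of all measured genes, and at equal class weights 4 of 12 were higher and 0 lower, against 3.83% and 5.49%.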

How the data were processed

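Single nuclei of macaque amygdala were measured in 1 deposited table of raw UMI counts (19708 gene rows, 26400 nuclei, values 0 to 705). Per the submitters' processing notes, the authors produced the counts with Cell Ranger 3.0.0 after fastp, and the build named is GRCh38. Macaque Ensembl identifiers stand in 5142 rows, of which a reference table gave symbols to 796, so the build used for counting is not settled. Libraries used the 10x Chromium 3′ kit, per the labels' protocols. Reads were filtered and mapped before deposit, so losses there cannot be seen in the counts.

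The rule and 5 further gates were applied to the counts as deposited. UMIs were summed over the nuclei of a class and scaled to CPM, and a log2 ratio is that of 2 such levels, where 3 UMIs stand in for none. Higher and lower mean at least 2-fold. CPM intervals are exact Poisson, shares exact Clopper-Pearson and log2 ratios exact conditional binomial, all at 95% and for counting error only. No nuclei were removed as doublets. Doublet scores within each barcode set, from simulated doublets, marked the highest 0.8% per 1000 nuclei (1862 nuclei, 58 of them precursors) as presumed doublets, which an alternative left out. Thinning drew 1000 UMIs per nucleus and left out shallower nuclei. Shares of nuclei and log2 ratios came from separate draws. The fold calculation was tested on simulated data. Software was Python 3.11.15 with numpy 2.4.6, scipy 1.17.1, scikit-learn 1.9.0 and matplotlib 3.10.9.

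Genes were named by the bound of the 95% interval of the log2 ratio nearest 0: the 20 highest and 10 lowest against all other nuclei, the 8 highest and 8 lowest in each other comparison, those furthest from 0 in each gene list, and the marker genes. Genes above each other class, genes of the band analyses and some list members given for their role were named after their values were seen. The members and lists were chosen with earlier results of these data known. No sequences or coordinates were used here.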

Additional observations from a re-analysis of the deposited data

How the results depend on the processing

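Precursors were 1.63% of nuclei, and 1.79% with an LHFPL3 minimum of 2 UMIs, 1.45% with 5, 1.29% with 10 and 1.19% without the 114 nuclei in which other markers were ahead. With each barcode set left out in turn the share ran from 1.57% to 1.66%. Against all other nuclei, 1308 genes were higher, and 539 with nuclei thinned to 1000 UMIs, 647 with each nucleus at equal weight, 334 at equal class weights and 6806 with a minimum of 1 UMI. Of 966 lower genes, the counts became 478 at equal class weights and 1477 with a minimum of 1 UMI. Over astrocytes, 514 higher and 902 lower genes became 3818 and 1581 with a minimum of 1 UMI. Over committed precursors, 143 higher genes became 250 with each nucleus at equal weight, 438 with a minimum of 20 UMIs and 1245 with 1, and 161 lower genes became 100 with thinning and 2235 with a minimum of 1 UMI. Over mature oligodendrocytes, 723 higher genes became 457 with thinning, 1143 with a minimum of 20 UMIs and 1984 with 1, and 480 lower genes became 2742 with a minimum of 1 UMI. A lower minimum tests more genes with few UMIs by construction; the cause of the other shifts was not tested.

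Leaving out each barcode set gave 1161 to 1226 higher and 878 to 903 lower genes against all other nuclei, 445 to 461 and 764 to 879 over astrocytes, 122 to 144 and 128 to 140 over committed precursors, and 534 to 647 and 388 to 438 over mature oligodendrocytes. Of 74 called genes followed against all other nuclei, 64 remained at least 2-fold and 73 kept their direction at equal class weights. The log2 ratio of BCAS1, which the committed gate counts, was −0.29 there. That of TOP2A over all other nuclei was −0.84 without barcode set 1. Over committed precursors RELN was at −0.58 without barcode set 3 and −0.55 without the 114 nuclei, and CCDC146 at −0.10 without the 114. The settings without the 114 nuclei, with LHFPL3 at 10 or more, without ependymal markers in astrocytes and without shared barcodes were added after seeing the data. No paired analysis was possible because the barcode sets are tied to no sample and no test was run. Depth limits genes with few UMIs in the 161 committed precursors and 374 mature oligodendrocytes most.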
